A study of Mus musculus with 62 samples.

Results

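The genes described here mark neurons that receive dopamine and adenosine: the dopamine receptors Drd1, Drd2 and Drd3, the adenosine receptors Adora1 and Adora2a, and the striatal neuron genes Ppp1r1b, Ano3, Strip2 and Slc35d3. The 9 genes were taken by name from a study whose deposited tables together held 12483 genes. Of the 9 genes, 8 were analysed in the nucleus accumbens (NAc, n = 26 libraries) and prefrontal cortex (PFC, n = 17) and 5 in the suprachiasmatic nucleus (SCN, n = 19), and these had passed the filter on low counts that the authors applied. Drd3 was not analysed in any region, and Drd2, Adora2a and Slc35d3 were not analysed in the SCN. The mice were C57BL/6J males and females that had been through circadian rhythm disruption (CRD) or the matching control paradigm. For these tissues the study's methods name CRD in adolescence, whereas the protocol in the labels names adult CRD as well. Brains were collected at ZT6 (6 h after lights on) some weeks after either paradigm ended. The labels give the region and mouse number of every library. They give neither the paradigm nor the sex, so the values below are levels over all libraries of a region and no effect of CRD was computed. Each library is a frozen tissue punch of 1 animal, and 26 mice gave the 62 libraries.

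In the striatum, of which the NAc is the ventral part, most neurons are GABAergic projection neurons of 2 kinds. Those of the direct pathway carry the Gs/olf-coupled D1 receptor, and those of the indirect pathway carry the Gi-coupled D2 receptor together with the Gs/olf-coupled A2a receptor, so dopamine and adenosine push the cAMP of the indirect pathway neuron in opposite directions. Both kinds hold DARPP-32, the product of Ppp1r1b, which blocks protein phosphatase 1 once protein kinase A has phosphorylated it. The A1 receptor, by contrast, is found on neurons across the brain. In a bulk punch, fewer cells of a type and less RNA per cell cannot be told apart.

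The 3 promoter windows below belong to the genes on which the results turn: Drd1 and Drd2, whose ratio is followed across libraries, and Slc35d3, the member with the largest difference between the NAc and the PFC. Each covers 250 bases before and 50 bases after a RefSeq transcript start (GRCm38.p6) and is written 5′ to 3′ on the gene's strand. Capitals mark GGGCGG on either strand, the core of the GC box.
Drd1, chr13:54055609-54055908, minus strand: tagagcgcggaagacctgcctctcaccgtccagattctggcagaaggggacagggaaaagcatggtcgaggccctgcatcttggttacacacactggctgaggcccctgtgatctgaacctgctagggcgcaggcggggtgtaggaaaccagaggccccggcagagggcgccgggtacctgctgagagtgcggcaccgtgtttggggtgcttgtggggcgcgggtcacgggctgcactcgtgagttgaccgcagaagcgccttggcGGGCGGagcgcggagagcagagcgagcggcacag
Drd2, chr9:49340153-49340452, plus strand: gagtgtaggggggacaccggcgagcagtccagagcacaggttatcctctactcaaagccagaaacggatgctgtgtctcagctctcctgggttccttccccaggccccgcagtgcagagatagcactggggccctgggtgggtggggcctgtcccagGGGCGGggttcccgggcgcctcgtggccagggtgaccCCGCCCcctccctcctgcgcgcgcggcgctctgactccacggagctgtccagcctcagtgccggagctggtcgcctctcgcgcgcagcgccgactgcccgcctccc
Slc35d3, chr10:19851410-19851709, minus strand: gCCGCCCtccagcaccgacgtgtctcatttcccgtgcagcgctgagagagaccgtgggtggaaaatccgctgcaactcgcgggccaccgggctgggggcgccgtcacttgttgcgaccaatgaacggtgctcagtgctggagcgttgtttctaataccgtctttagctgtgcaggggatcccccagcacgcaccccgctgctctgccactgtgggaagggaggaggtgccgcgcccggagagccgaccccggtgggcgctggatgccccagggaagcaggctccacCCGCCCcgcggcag
The Drd1 window holds the motif 1 time and the Drd2 and Slc35d3 windows 2 times each. Of all 32851 RefSeq windows of this length, 35.7% hold it. All 3 windows are rich in GC, with 65.7% in Drd1, 70.3% in Drd2 and 67.7% in Slc35d3, against a median of 52.7% over all windows. RefSeq windows were found for 7 of the 9 genes. Between Drd1 and Drd2, the transcripts differ more in GC than the windows printed here. Another Drd1 window, from 54054731 to 54055030, has 59.3% GC. The longest protein-coding transcript of Drd1 (ENSMUSG00000021478) has 46.0% GC, below the median of 49.7% over the genes of the table, while that of Drd2 (ENSMUSG00000032259) has 55.0%, Adora2a (ENSMUSG00000020178) 59.2% and Ppp1r1b (ENSMUSG00000061718) 61.0%. These shares return below, beside the ratios. GENCODE M21 (GRCm38) places the protein-coding genes Drd1 on chromosome 13 from 54051183 to 54055705, Drd2 on chromosome 9 from 49340627 to 49408177, Slc35d3 on chromosome 10 from 19847916 to 19851459 and Adora2a on the same chromosome from 75316877 to 75334784. The RefSeq start of the Drd2 window thus lies upstream of the annotated gene start in GENCODE.

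The total count of a library ranged from 28879724 to 60009482 in the NAc, from 31216225 to 50333579 in the PFC and from 16496666 to 35389742 in the SCN. Levels are given as CPM, the count of a gene relative to the size of its library, with library sizes scaled by edgeR's TMM factors. The regions carried the marker genes of their tissue. The sum of 10 markers of striatal projection neurons lay between 1954 and 4233 CPM in the NAc and between 229 and 360 CPM in the PFC. The sum of 9 markers of cortical glutamatergic neurons lay between 981 and 1088 CPM in the PFC and between 13.4 and 508 CPM in the NAc, so that the NAc punches differed widely in cortical markers. All 9 SCN neuron markers were present in the SCN, with a sum of 89.2 to 463 CPM. SCN J1199 and SCN J1140 stood apart from the other SCN libraries by striatal genes, and results that rest on them are given with and without them.

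Drd2 was above 1 CPM in 2 of 17 PFC libraries and Slc35d3 in 0 of 17, while both were above it in 26 of 26 NAc libraries. They thus entered the table through the NAc, where they are high, and their differences between these regions are given as a description with no test. Of the other 6 members, 5 were higher in the NAc and 1, Adora1, did not pass, where 23.7% of the 11569 genes tested were called higher in the NAc, 21.7% lower and 45.4% were called in either direction. A call needed an adjusted p under 0.05 (edgeR's quasi-likelihood test with Benjamini-Hochberg adjustment over all genes) and a fold of at least 1.2. These 5 were higher in the NAc library in 17 of the 17 mice with both regions, and 4 of them had no overlap between the regions, which was the case for 9.50% of all genes. The median log2 fold change was 4.04 over the 6 members and 0.02 over all genes.

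Drd1 encodes the D1 receptor of direct pathway neurons. It ranged from 60.6 to 209 CPM in the NAc (median 117 CPM), and from 2.26 to 8.37 CPM in the PFC (median 5.34 CPM). The lowest NAc library thus stood well above the highest PFC library, and the log2 fold change was 4.59 (SE 0.17, adjusted p = 4.2e-27). Drd2, the D2 receptor of indirect pathway neurons, ranged from 16.7 to 46.7 CPM in the NAc (median 28.9 CPM). In the PFC it reached 1.49 CPM at most, with a median of 0.508 CPM that rests on 18 counts. The log2 fold change of Drd2 was 5.87 (SE 0.24). PFC J1141 held 0 counts of Drd2, which allows up to 0.0981 CPM at 3 counts, for counting error only. Adora2a, the A2a receptor gene, is used as an indirect pathway marker beside Drd2. Its range was 41.8 to 121 CPM in the NAc (median 82.0 CPM), and 0.229 to 3.9 CPM in the PFC (median 1.18 CPM). Again the regions did not overlap, and the log2 fold change was 5.77 (SE 0.23, adjusted p = 7.1e-26). Adora1, the A1 receptor gene, was the exception. It ranged from 21.3 to 53.4 CPM in the NAc and from 26.5 to 47.7 CPM in the PFC, with medians of 38.9 and 39.6 CPM, and the PFC range fell inside the NAc range. Its log2 fold change was -0.05 (SE 0.08, adjusted p = 0.64), and it was higher in the NAc in 7 of 17 mice.

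Slc35d3, a nucleotide sugar transporter family gene marking D1 receptor neurons, had the largest fold change of the members, 6.16 on the log2 scale (SE 0.13). Its level was modest, with 14.2 to 25.1 CPM in the NAc (median 19.1 CPM) and 0.127 to 0.497 CPM in the PFC (median 0.235 CPM, or 9 counts). Ppp1r1b had the highest level in the NAc, from 200 to 504 CPM (median 319 CPM), against 6.25 to 21.2 CPM in the PFC with a median of 13.7 CPM (log2 fold change 4.55, SE 0.14, adjusted p = 1.6e-30). Strip2, which encodes a subunit of striatin-associated phosphatase and kinase complexes, ranged from 105 to 195 CPM in the NAc, with 154 CPM as its median, and from 7.91 to 16.5 CPM in the PFC, with 13.0 CPM as its median (log2 fold change 3.53, SE 0.09, adjusted p = 2.9e-34). It also had a narrow spread within the NAc, with an SD of 0.24 on the log2 scale. Ano3, of the anoctamin family of membrane proteins, was expressed in both regions. It ranged from 85.5 to 316 CPM in the NAc (median 166 CPM) and from 65.1 to 97.3 CPM in the PFC (median 78.3 CPM), so the lowest NAc libraries overlapped the PFC. Its log2 fold change was 1.16 (SE 0.13, adjusted p = 4.0e-11).

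**Figure D1:**
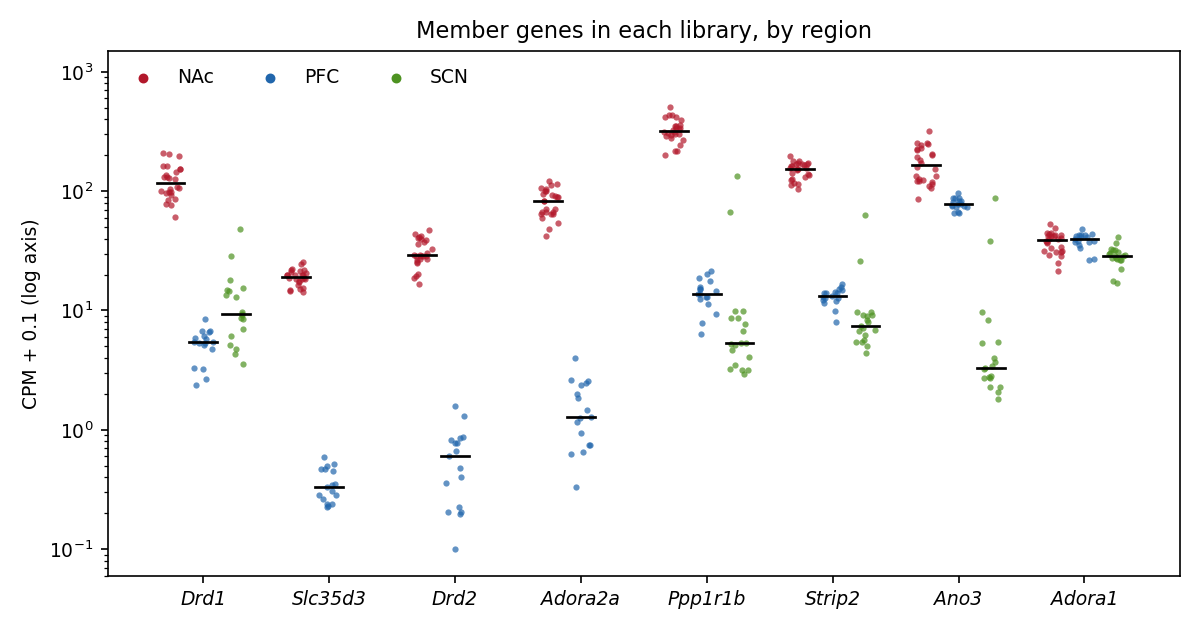
Level of each member in every library (CPM plus 0.1, log axis) for the NAc (26 libraries), PFC (17) and SCN (19), with horizontal bars at the medians. Drd1, Slc35d3, Drd2, Adora2a, Ppp1r1b and Strip2 do not overlap between the NAc and the PFC, Ano3 overlaps in part, and Adora1 has medians of 38.9 and 39.6 CPM in the NAc and PFC.

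Per kilobase of annotated exon, the median level in the NAc was highest for Ppp1r1b (109 CPM per kb), followed by Drd1 (32.3), Adora2a (26.8), Ano3 (23.0), Strip2 (18.5), Drd2 (11.3), Slc35d3 (7.25) and Adora1 (6.72). Ppp1r1b stood clear of Drd1 in these ranges, since its lowest library was at 68.4 CPM per kb and the highest of Drd1 at 57.5, whereas the other neighbours in this order overlapped. In the PFC the order changed. Ano3 (10.8 CPM per kb) and Adora1 (6.84) came first, Ppp1r1b (4.68), Strip2 (1.57) and Drd1 (1.47) followed, and Adora2a (0.385), Drd2 (0.199) and Slc35d3 (0.0892) came last. Within the PFC, J1177 held the highest level of Drd1, Drd2, Adora2a and Ppp1r1b. PFC J1141 held the lowest level of Drd2, Adora2a and Ppp1r1b. The neuropeptide precursor Tac1 (8.96 CPM) and the receptor gene Gpr6 (2.64 CPM), which are high in striatal neurons, were also highest of the PFC in J1177. The part of striatal RNA in these PFC levels was not tested.

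Genes known to accompany D1 receptors went in the same direction with exceptions. Of 8 listed direct pathway genes, Slc35d3 and Isl1 entered the table through the NAc. Of the other 6, 4 were higher in the NAc, among them Tac1 (log2 fold change 4.33, SE 0.09), the precursor of substance P, and Pdyn (3.56, SE 0.10), the precursor of dynorphin. The transcription factor Isl1 (6.91, SE 0.25) is barely counted in the PFC, where its median was 0.0209 CPM and its highest library 0.329 CPM, against 5.17 to 13.1 CPM in the NAc. Eya1 was lower (-0.46, SE 0.10), and Sfxn1 had a log2 fold change of 0.02 (SE 0.04). Of 8 listed indirect pathway genes, 5 were analysed, and the orphan receptor Gpr6 (5.46, SE 0.22), above 1 CPM in 4 of 17 PFC libraries, entered through the NAc. Of the other 4, 2 were higher: Penk, the enkephalin precursor (5.31, SE 0.16), and the transcription factor Sp9 (3.14, SE 0.12). Grik3 (0.12, SE 0.16) and Oprd1 (0.09, SE 0.08) did not pass. The median log2 fold changes were 1.40 over the 6 direct pathway genes and 1.63 over the 4 indirect pathway genes.

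The signalling cascade below the D1 and A2a receptors was higher in the NAc for 21 of the 26 listed genes other than Drd2, with a median log2 fold change of 1.72. Drd1 and Ppp1r1b are among them. Its adenylyl cyclase Adcy5 ranged from 262 to 672 CPM in the NAc and from 42.0 to 73.6 CPM in the PFC (log2 fold change 3.0, SE 0.11). The G protein subunits Gnal (2.44, SE 0.08) and Gng7 (3.32, SE 0.11) and the phosphodiesterases Pde10a (4.03, SE 0.10) and Pde1b (3.11, SE 0.09) were higher as well. Lower genes were Camk2a (-0.88, SE 0.07), a kinase abundant in cortical excitatory neurons, and Grk2 (-1.08, SE 0.07) and Arrb2 (-0.40, SE 0.07), which act in receptor desensitization. Cdk5r1 and Prkcb were not called. Of 18 genes for the synthesis, uptake and breakdown of dopamine and adenosine, 7 were tested. Nt5e, the ecto-enzyme that makes adenosine from AMP, was higher in the NAc (2.87, SE 0.14), as was the adenosine transporter Slc29a1 (0.69, SE 0.07). Adenosine kinase, Adk (-0.38, SE 0.04), and Maob (-0.50, SE 0.05) were lower, and Maoa and Entpd1 were among those not called.

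In the SCN all 5 members tested were lower than in the NAc, where 29.8% of the 11133 genes present in both tables were called lower, 34.2% higher and 64.1% in either direction, by edgeR's quasi-likelihood test with TMM over the libraries of both regions. Drd1 ranged from 3.48 to 47.7 CPM in the SCN (median 9.33 CPM), and its log2 fold change against the NAc was -3.51 (SE 0.24, adjusted p = 3.7e-18). Ppp1r1b (-4.61, SE 0.42), Ano3 (-4.35, SE 0.42) and Strip2 (-3.98, SE 0.24) were lower still. These 4 had no overlap with the NAc, as had 13.3% of all genes. Adora1 was lower by a small amount (-0.60, SE 0.09, adjusted p = 3.9e-08), with 17 to 41.3 CPM in the SCN (median 28.7 CPM), and was higher in the SCN than the NAc in 2 of 19 mice. Per kilobase the order in the SCN was Adora1 (4.97 CPM per kb), Drd1 (2.57), Ppp1r1b (1.78), Strip2 (0.872) and Ano3 (0.442), with overlapping ranges between neighbours. Each region was deposited in 1 of 2 tables, and region and table cannot be told apart for the SCN.

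SCN J1199 and SCN J1140 held more of 4 of the 5 genes than any other SCN library. Ppp1r1b was at 134 and 66.9 CPM there, against 2.83 to 9.87 CPM in the other 17 SCN libraries. Ano3 was at 86.7 and 38.3 CPM against at most 9.63 CPM, Strip2 at 62.8 and 25.8 CPM against at most 9.68 CPM, and Drd1 at 47.7 and 28.2 CPM against at most 17.8 CPM. Adora1 was not apart, at 32.1 and 32.4 CPM. On a scale shared with the NAc, J1199 reached 33.8% of the NAc median for Drd1, 35.2% for Ppp1r1b, 43.5% for Ano3 and 33.8% for Strip2, and J1140 reached 14.2% to 20.5% for the same 4 genes. Of the 10 striatal projection neuron markers, J1199 was above the other 17 SCN libraries for 10 and J1140 for 8. Meis2 was high in both, at 61.8 and 22.8 CPM against at most 8.44 CPM in the others, as was Pde10a, at 217 and 88.4 CPM against at most 33.2 CPM. For Bcl11b and Foxp1, J1140 stood at 22.1 and 15.7 CPM, below the highest of the others at 22.9 and 27.5 CPM, and for Tac1 it was at 38.7 CPM against at most 35.0 CPM. The part of striatal RNA in these SCN levels was not tested. With these 2 libraries left out, the log2 fold changes against the NAc were -3.90 for Drd1, -6.09 for Ppp1r1b, -5.76 for Ano3, -4.61 for Strip2 and -0.63 for Adora1.

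**Figure D2:**
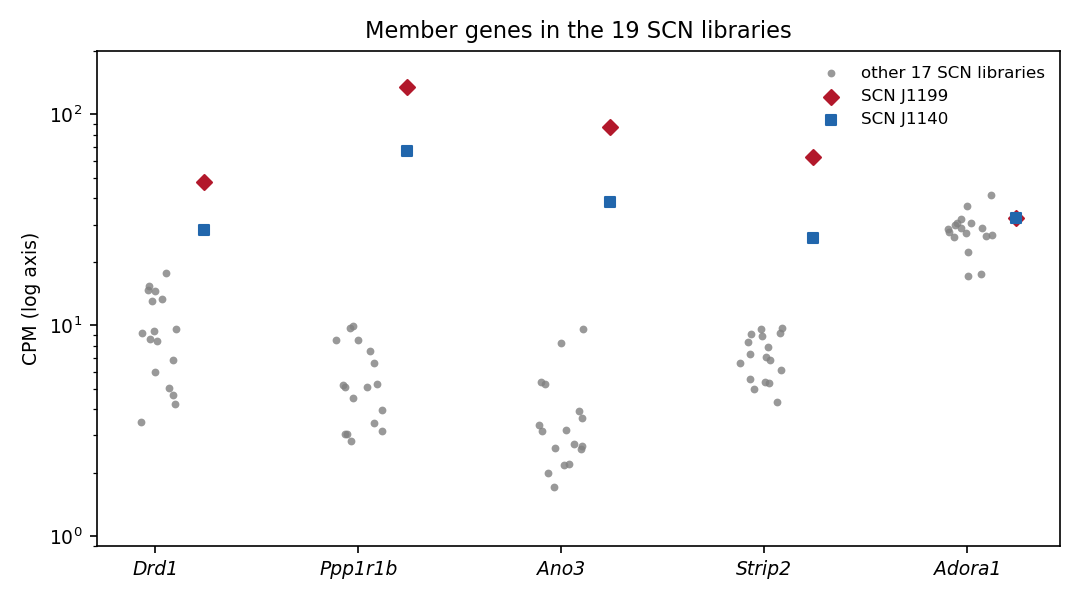
Level (CPM, log axis) of the 5 members tested in the SCN, in each of 19 libraries, with J1199 as diamonds, J1140 as squares and the other 17 libraries in grey. Drd1, Ppp1r1b, Ano3 and Strip2 are highest in the 2 marked libraries, and Adora1 is not, at 32.1 and 32.4 CPM.

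Against the PFC, 1 of the 5 members was called higher in the SCN and 2 were called lower, where 33.5% and 31.3% of the genes were called in those directions, 64.8% in all, and 20.8% had no overlap. Drd1 was higher (log2 fold change 1.06, SE 0.25, adjusted p = 0.00028 by edgeR's quasi-likelihood test), but in 7 of 12 mice, and the ranges overlapped. Ano3 (-3.21, SE 0.43) and Adora1 (-0.68, SE 0.09) were lower in 12 of 12 mice. Strip2 (-0.47, SE 0.26, adjusted p = 0.091) and Ppp1r1b (-0.08, SE 0.43, adjusted p = 0.87) did not pass, although both were lower in the SCN library in 12 of 12 mice with both regions. No PFC library of J1199 or J1140 is among these 12. Without SCN J1199 and SCN J1140, Strip2 (-1.09, adjusted p = 3.5e-12) and Ppp1r1b (-1.54, adjusted p = 4.9e-10) were called lower, and so they were with the mouse number as a block (-1.09 and -1.62). Drd1 stayed higher in the SCN but by less, at 0.68 without these libraries (adjusted p = 0.0018) and 0.63 with the block (adjusted p = 0.041), and Ano3 was at -4.61 without them.

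The balance between the direct and indirect pathway was followed as the log2 ratio of counts of 2 genes in 1 library (0.5 added to each count), which does not depend on library scaling. Drd1 exceeded Drd2 in 26 of 26 NAc libraries. The log2 Drd1/Drd2 ratio ranged from 1.38 (NAc J1162) to 3.03 (NAc J1019) with a median of 1.85 and a mean of 1.98 (SD 0.46, n = 26), and all NAc libraries together held 135431 counts of Drd1 and 35183 of Drd2, a ratio of 3.85. Per kilobase of exon the median log2 ratio was 1.34. The log2 Drd1/Adora2a ratio lay nearer to balance, from 0.03 to 1.22 with a median of 0.57, and per kilobase 24 of 26 libraries had more Drd1 than Adora2a. Between the 2 indirect pathway receptors, log2 Adora2a/Drd2 ranged from 1.06 to 1.91 (median 1.36). Its SD was 0.23 and its interquartile range 0.305, against 0.28 and 0.259 for log2 Drd1/Adora2a. Counting error was small beside these ranges, with a median SE of 0.05 for log2 Drd1/Drd2 and of 0.03 for log2 Drd1/Adora2a.

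In the PFC, where the levels were low and Drd2 was above 1 CPM in 2 of 17 libraries, the ratio lay further toward Drd1. Log2 Drd1/Drd2 ranged from 2.1 (PFC J1018) to 7.62 (PFC J1141, with 98 counts of Drd1 and 0 of Drd2, at least 32.7-fold at a floor of 3 counts in that library), with a median of 3.28. The counts of all PFC libraries gave a ratio of 9.68, from 3872 counts of Drd1 and 400 of Drd2. The mean was lower in the NAc by 1.85 on the log2 scale, and 2 of 17 mice had the higher ratio in the NAc. Since Drd2 entered the table through the NAc, this difference is given as a description with no test. Log2 Drd1/Adora2a was lower in the NAc by 1.43 (two-sided permutation test, 100000 resamples, adjusted p = 3.0e-05 over 3 ratios), and 1 of 17 mice went the other way. Log2 Adora2a/Drd2, NAc minus PFC, was -0.43, and it had opposite signs in the lower and the upper range of mouse numbers (0.17 and -0.85). The SD over the PFC libraries was 1.45 for log2 Drd1/Drd2. The SE from counting error had a median of 0.36 and reached 2.05 in 1 library. In the SCN the ratio was not computed, since Drd2 and Adora2a were not analysed there.

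**Figure D3:**
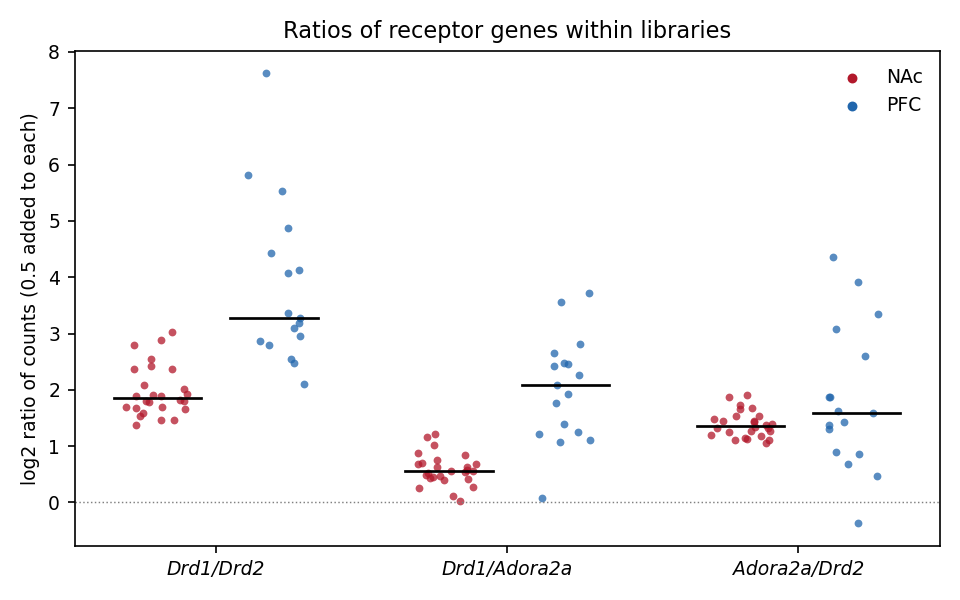
Log2 ratio of counts of Drd1/Drd2, Drd1/Adora2a and Adora2a/Drd2 (0.5 added to each count) in each NAc (26) and PFC (17) library, with bars at the medians. Drd1/Drd2 has a median of 1.85 in the NAc and 3.28 in the PFC, and the PFC libraries are spread more widely.

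The spread of the ratio over NAc libraries moved with measures of the libraries as a whole. These measures were chosen after the data had been seen, so the p-values given with them do not come from a planned test. One measure was the median deviation of genes with GC-rich transcripts (the upper 25% by GC) from their mean level, minus that of GC-poor transcripts (the lower 25%), in log2 CPM. It ranged from -0.60 to 0.45 over the NAc. Log2 Drd1/Drd2 was lower where GC-rich transcripts were higher (Pearson's r = -0.87, adjusted p = 4.0e-05, Spearman's rho = -0.81, adjusted p = 6.0e-05, permutation tests over 12 relations, n = 26). It held in the lower range of mouse numbers, up to J1021 (r = -0.94, n = 12), in the upper range, from J1140 (r = -0.66, n = 14), and with the 2 farthest libraries left out (r = -0.81). The share of mitochondrial and ribosomal RNA, 45.4% to 75.2% of counts, went with the ratio in the opposite direction (r = 0.79, rho = 0.80, r = 0.68 without the 2 farthest). The total count showed no relation that passed (r = 0.18, adjusted p = 0.42, permutation test). For log2 Drd1/Adora2a the r with the GC measure was -0.85 and for log2 Adora2a/Drd2 it was -0.68. The part of these measures in the ratio was not tested. With the GC measure removed by linear regression, an alternative chosen after the data had been seen, the SD of log2 Drd1/Drd2 over NAc libraries was 0.23 in place of 0.46.

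The 2 ranges of mouse numbers, which may be batches, differed in this ratio. Log2 Drd1/Drd2 averaged 2.22 (SD 0.48, n = 12) in the lower range and 1.78 (SD 0.33, n = 14) in the upper range, a difference of 0.44 (permutation test, adjusted p = 0.016). Between medians the difference was 0.27 (permutation test, adjusted p = 0.087). The ranges had overlap between 1.69 and 2.42. Log2 Drd1/Adora2a differed by 0.33 (permutation test, adjusted p = 0.0035) and log2 Adora2a/Drd2 by 0.11 (permutation test, adjusted p = 0.24). With the GC measure removed the differences were 0.04, 0.09 and -0.05, and none passed. The GC measure itself had a median of -0.13 in the lower range and 0.02 in the upper range. Its median was 0.08 over the PFC libraries and -0.02 over the NAc libraries. Its deviations were taken from the mean over both regions, so differences in expression between the regions enter it. The part of the GC measure in the ratio between regions was not tested.

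**Figure D4:**
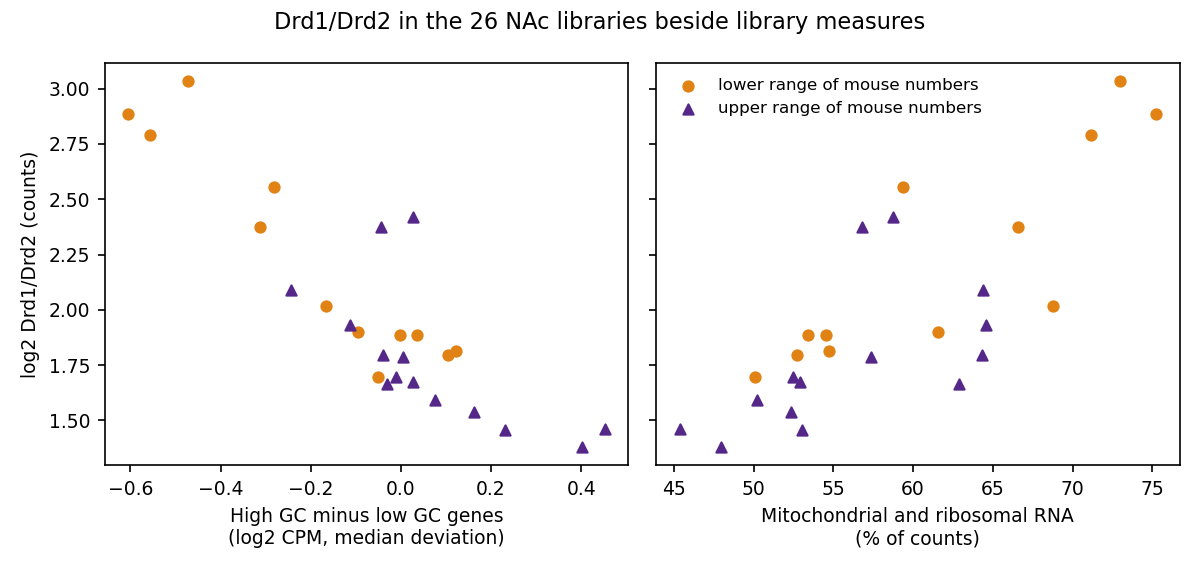
Log2 Drd1/Drd2 of counts in the 26 NAc libraries against the GC measure of the library (left, log2 CPM) and against the share of mitochondrial and ribosomal RNA genes (right, percent of counts), with circles for the lower and triangles for the upper range of mouse numbers. The ratio is lower where the GC measure is higher (r = -0.87) and higher where the share is higher (r = 0.79).

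Over the NAc punches, 17 of 28 pairs of members passed (permutation tests of Pearson's r of log2 CPM, Benjamini-Hochberg over the 28, n = 26), 15 with a positive r and 2 with a negative one (Adora1 with Drd1 and with Ano3). The smallest r that passed was 0.43 in size, which 31.8% of all pairs of the 11569 genes reached over these libraries, 15.9% with a positive r. The closest pair was Drd2 and Ppp1r1b (r = 0.94, rho = 0.93). Drd2 and Adora2a, which are found in the same neurons, had r = 0.83 (rho = 0.80), and Drd1 and Adora2a, which mark different neurons, had r = 0.79 (rho = 0.76). Drd1 and Ano3 had r = 0.81 (rho = 0.82). Drd1 and Drd2 were less close (r = 0.45, rho = 0.40, adjusted p = 0.037 and 0.075), and Drd1 and Ppp1r1b did not pass (r = 0.41, adjusted p = 0.053, permutation test). With the GC measure removed, the values were r = 0.83 for Drd1 and Drd2 and 0.86 for Drd1 and Ppp1r1b, and 16 pairs passed, 15 of them among the first 17. Strip2 passed with neither Drd1 (r = -0.32) nor Drd2 (r = -0.06), but with Slc35d3 (r = 0.57, and 0.61 with the GC measure removed). Strip2 also passed with Adora1 (r = 0.43). That pair did not pass by rank (rho = 0.33), without the 2 farthest libraries (r = 0.17) or with the GC measure removed (r = 0.40). Adora1 was lower where Drd1 was higher (r = -0.79, rho = -0.75), and less so with the GC measure removed (r = -0.47). Within the lower range of mouse numbers 8 pairs passed, and Drd1 and Drd2 were at r = 0.26 there and at r = 0.74 in the upper range. Drd1 and Strip2 passed in the lower range (r = -0.72, adjusted p = 0.027, permutation test) and were at r = 0.06 in the upper range.

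**Figure D5:**
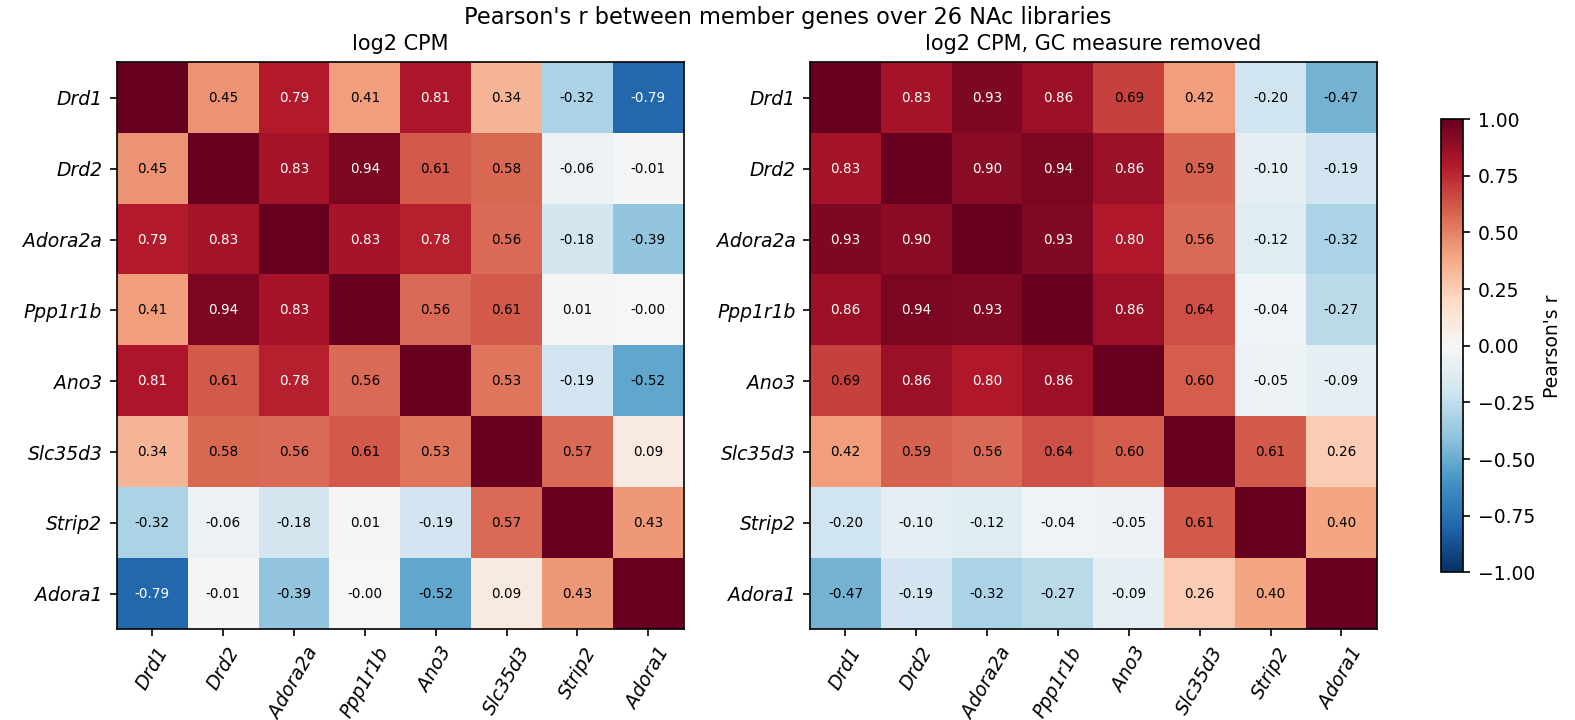
Pearson's r of log2 CPM between members over the 26 NAc libraries, as measured (left) and with the GC measure of the library removed by regression (right), on a color scale from -1 to 1. Drd1 and Drd2 are at 0.45 on the left and 0.83 on the right, and Drd2 and Ppp1r1b at 0.94 on both sides.

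Outside the members, the genes with the pattern most like Drd1 over the 26 NAc libraries were Klhl13 (r = 0.97), Cyld (0.97), Med12l (0.96), Ric8b (0.96) and Mpp6 (0.96), of 11561 genes compared, and their transcripts had 42.2% to 47.0% GC. Those most like Drd2 were Ngef, Ccdc88c, Syndig1l, Rasd2 and Foxo3 (each r = 0.90), with 53.2% to 59.5% GC. Among those most like Adora2a were Lzts3 (0.95), Ptpn5 (0.93), Tle1 (0.93) and Rasd2 (0.92), with 53.0% to 58.8% GC. Rasd2 was thus on the lists of both indirect pathway receptors. The log2 Drd1/Drd2 ratio itself was most like Klhl11 (0.91), Zdhhc20 (0.89), Supt20 (0.89), Zdhhc21 (0.89) and Fam126b (0.89), and most opposed to Wbp2 (-0.93), Iqsec2 (-0.92), Med25 (-0.92), Git1 (-0.91) and Fscn1 (-0.91). None of these 10 genes is one of the listed pathway genes. The first 5 had 37.0% to 49.8% GC and the last 5 had 56.0% to 60.6%. Across 10885 genes, the median r with the ratio was 0.51 in the 25% with the least GC and -0.45 in the 25% with the most. Genes share these libraries and are not independent replicates.

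Markers of other cells in the punch were set beside the ratio. Of 18 relations between the 3 ratios and 6 marker lists, 6 passed. Log2 Drd1/Drd2 was lower where GABA interneuron markers (r = -0.56, adjusted p = 0.015, permutation test), astrocyte markers (r = -0.55) and cortical glutamatergic markers (r = -0.48, adjusted p = 0.042, permutation test) were higher, and log2 Adora2a/Drd2 had r = -0.56, -0.56 and -0.47 with the same lists. By rank, the GABA interneuron list passed with log2 Drd1/Drd2 (rho = -0.60, adjusted p = 0.027, permutation test), and the astrocyte and cortical lists did not (rho = -0.42 and -0.41, both adjusted p = 0.12, permutation tests). None passed in the upper range of mouse numbers, without the 2 farthest libraries, or with the GC measure removed. Without the 2 farthest libraries, log2 Drd1/Drd2 had r = -0.32 with the GABA interneuron, -0.35 with the astrocyte and -0.45 with the cortical list, and with the GC measure removed r was 0.18, -0.08 and 0.0037. In the lower range (n = 12), 6 of the 18 passed, namely the GABA interneuron and astrocyte lists with each of the 3 ratios (r = -0.70 to -0.78, adjusted p = 0.039, permutation tests). Oligodendrocyte and microglia markers did not pass (r = -0.38 and -0.16 with log2 Drd1/Drd2). Cholinergic interneurons carry D2 receptors too, but their defining marker Chat was not analysed.

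No relation passed between the ratio in the NAc of a mouse and the ratio in its PFC. The PFC ratio rests on few counts of Drd2 (median 18). Its SE from counting error had a median of 0.36 and reached 2.05, which limits what these values can show about the mice. Over the 17 mice with both regions, Pearson's r of log2 Drd1/Drd2 was -0.12 (permutation test, p = 0.65) and Spearman's rho was -0.10 (permutation test, p = 0.72). Without the 2 mice farthest from the median r was 0.07. It was -0.71 in the 7 mice of the lower range (exact permutation test, p = 0.080) and 0.46 in the 10 mice of the upper range (permutation test, p = 0.17), so neither range gave a relation that passed. The fold change of the members between the NAc and the PFC was also set against the mouse range. In an edgeR quasi-likelihood fit with an interaction term over 11569 genes, the smallest adjusted p of a member was 0.18, for Adora1, whose log2 fold change was larger by 0.41 in the upper range (unadjusted p = 0.013). The other 7 members had unadjusted p of 0.058 or more.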

How the data were processed

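RNA from NAc, PFC and SCN punches was sequenced as whole-tissue libraries. The authors used HISAT2 (GRCm38) for alignment and HTSeq for counting, removed genes with low counts, and deposited raw counts per gene with no scaling, the SCN in its own table (12047 rows) and the NAc together with the PFC in the other (11569 rows). FastQC 0.11.7 is named in the submitters' processing notes. The SCN was compared with the other regions on the 11133 shared rows. Tests between regions used edgeR 4.0.16 in R 4.3.3 (TMM, filterByExpr, quasi-likelihood test, Benjamini-Hochberg over all genes), without a block. DESeq2 1.42.0 was an alternative. Replicates are different mice, and regions are paired where 1 animal gave both. The correlation of the NAc and PFC deviations of a mouse had a median of 0.006 over 17 mice and exceeded 0.1 in 7.

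Relations used log2 CPM (prior count 2) and two-sided permutation tests with 100000 resamples, whose smallest p is 1e-05, exact where a range held fewer than 10 libraries. Positions, exon lengths and transcripts came from GENCODE M21, and promoters and their positions from RefSeq. A marker score is the mean z-score of genes above 1 CPM on average. The members and gene lists were chosen with earlier results of these data known. Genes named are the members, the listed genes and, for each of Drd1, Drd2, Adora2a and the Drd1/Drd2 ratio, the 5 genes with the highest r (for the ratio also the 5 lowest). A few genes named by this rule are not reported here. Alternatives were DESeq2 and its size factors, RLE factors, no filter, the mouse block, mice with both regions, each mouse range, other added counts, rank correlation, and leaving out the farthest libraries, SCN J1199 and J1140, SCN J1165, or mitochondrial and ribosomal RNA genes. The scripts were tested on simulated data. Calculations outside R used Python 3.11.15, numpy 2.4.6, pandas 2.3.3 and scipy 1.17.1.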

Additional observations from a re-analysis of the deposited data

How the results depend on the processing

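Between the NAc and the PFC, the 5 members called higher, beside Drd2 and Slc35d3, were called under each of the 8 alternatives run, with log2 fold changes of 4.34 to 4.89 for Drd1 and 5.54 to 6.17 for Adora2a. Those of Drd2 and Slc35d3 were 5.85 to 6.07 and 5.99 to 6.39. Adora1, not called in the main test, ranged from -0.28 to 0.13 over these alternatives, the latter in the upper range of mouse numbers. The 5 members lower in the SCN than the NAc were called under all 10 alternatives. Between the SCN and the PFC, the members called lower numbered 4 in place of 2 with DESeq2, with the mouse number as a replicate block, in the mice with both regions, in the lower range and with SCN J1199 and SCN J1140 left out, and Ppp1r1b was at 0.31 in the upper range. With the replicate block, log2 Drd1/Drd2 was lower in the NAc than the PFC by 1.69 on average, given with no test. Log2 Drd1/Adora2a, NAc minus PFC, was -1.35 with the block (permutation by sign flips, adjusted p = 0.00018). The block changed no other call. Log2 Adora2a/Drd2, NAc minus PFC, was 0.17 in the lower range and -0.85 in the upper range. The difference in log2 Drd1/Drd2 between mouse ranges was 0.27 between medians (adjusted p = 0.087, permutation test). With the GC measure removed, it was 0.042, and those of log2 Drd1/Adora2a and log2 Adora2a/Drd2 were 0.092 and -0.050. The relations among members that passed numbered 8 in the lower range. Those of the ratios with marker lists numbered 2 by rank correlation and 0 in the upper range, without the 2 farthest libraries and with the GC measure removed. With the last, the r of log2 Drd1/Drd2 was 0.0037 with cortical and 0.18 with GABA interneuron markers. The r between the NAc and PFC of a mouse was 0.066 without the 2 farthest mice and 0.46 in the upper range. The cause of these shifts was not tested. The comparisons of ratios with the SCN could not be run, since Drd2 and Adora2a were not analysed there. Depth limits Drd2 and Slc35d3 in the PFC, with medians of 18 and 9 counts.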

Other observations

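The 2 mice whose SCN libraries held striatal genes also had the NAc libraries with the most cortical RNA. The sum of 9 cortical glutamatergic markers over the NAc was highest in J1199, at 508 CPM, and second in J1140, against a median of 104 CPM. NAc J1199 had the lowest level of Drd1 (60.6 CPM), Adora2a (41.8 CPM) and Ppp1r1b (200 CPM) of the 26 NAc libraries. NAc J1140 had 83.6 CPM of Drd1, 82.0 CPM of Adora2a and 338 CPM of Ppp1r1b, and the highest level of Adora1 (53.4 CPM), and NAc J1199 was second for Adora1 (49.5 CPM). The log2 Drd1/Adora2a ratio was lowest of the NAc in J1140 (0.03), and the log2 Adora2a/Drd2 ratio was lowest in J1199 (1.06). These values were looked up after the SCN libraries had been seen, and the part of tissue sampling in them was not tested.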
